A study of Mus musculus with 2 samples.

Results

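The genes described here handle iron and heme: *Hmox1*, *Slc40a1*, *Cd163*, *Ftl1*, *Fth1*, *Tfrc*, *Cp*, *Hp*, *Lcn2* and *Slc11a1*. They were chosen by symbol, and all 10 were found among the 33696 genes of both libraries. Cells came from abdominal aortas of male C57BL/6J mice, 5 months old, taken after 28 days. Control mice received normal saline, and AngII+HS mice received angiotensin II at 1500 ng/kg/min from minipumps with 0.9% NaCl and 0.2% KCl in the drinking water, a model of abdominal aortic aneurysm. Each condition gave 1 library. The design text has 5 mice pooled per library, whereas the protocol in the labels names 1 Control and 2 treated mice.

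Free hemoglobin in blood is bound by haptoglobin (*Hp*), and the complex is taken up by the scavenger receptor CD163 of macrophages. Heme oxygenase 1 (*Hmox1*) then opens the heme ring and sets iron free. Ferritin, built of heavy (*Fth1*) and light (*Ftl1*) chains, stores that iron. Ferroportin (*Slc40a1*) exports it, and ceruloplasmin (*Cp*) oxidizes it for transferrin, whose receptor (*Tfrc*) brings iron into cells. *Slc11a1* encodes a metal transporter of phagosomes, and lipocalin 2 (*Lcn2*) binds the siderophores with which bacteria collect iron.

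Several of these transcripts carry an iron-responsive element, a hairpin bound by iron regulatory proteins, which blocks translation when it lies before the coding region and protects the RNA when it lies after it. It was searched on the transcript strand of GENCODE vM39 (for the 10 genes, in the transcript named 201) as the loop CAGTGN, preceded by 5 bases of any kind and a C before those, with 5 bases after the loop that pair with the 5 before it (G with T allowed). Matches lay in 4 of the 10 transcripts and in 1.26% of 180384 protein-coding transcripts, against 67.4% for the letters without the pairing. The matches are shown as the sequence feature that part of these genes share, with the loop in capitals, on GRCm39.
Fth1, 5′ UTR, exon 1 of 4, chr19:9960096-9960124, plus strand: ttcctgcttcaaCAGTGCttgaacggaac
Ftl1, 5′ UTR, exon 1 of 4, chr7:45109203-45109231, minus strand: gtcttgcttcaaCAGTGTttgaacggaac
Slc40a1, 5′ UTR, exon 1 of 8, chr1:45964625-45964653, minus strand: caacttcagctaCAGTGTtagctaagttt
Tfrc, 3′ UTR, exon 19 of 19, chr16:32450037-32450065, plus strand: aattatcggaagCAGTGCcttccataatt
Tfrc, 3′ UTR, chr16:32450416-32450444, plus strand: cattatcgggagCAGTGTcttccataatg
Tfrc, 3′ UTR, chr16:32450481-32450509, plus strand: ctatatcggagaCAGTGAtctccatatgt
Tfrc, 3′ UTR, chr16:32450528-32450556, plus strand: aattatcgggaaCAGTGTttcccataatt
The counts below are of RNA, so translation was not measured.

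After filtering, 10269 Control cells remained with a sum of 75294050 UMIs, and 19734 AngII+HS cells with 80581691. A UMI marks 1 captured RNA molecule. Levels are CPM, the counts of a gene per 1000000 UMIs of its cell group, and log2 ratios are AngII+HS over Control. Cells were clustered without the 10 genes and without the pathway genes named below. Macrophages numbered 477 in the Control and 4318 in the AngII+HS library, neutrophils 98 and 4658, vascular endothelial cells (VECs) 836 and 1202, lymphatic endothelial cells (LECs) 138 and 157, fibroblasts 1979 and 4302, and vascular smooth muscle cells (VSMCs) 5403 and 874. All 8 macrophage and all 7 neutrophil markers were higher in their own group than in each of 8 other groups of the same library. Exceptions among the other groups checked were *Kdr* in VECs and *Postn* in fibroblasts of both libraries, *Tie1* in AngII+HS VECs, and *Ccr7* and *Fscn1* in Control dendritic cells. With 1 library per condition there is no spread between mice and no test, so the 95% intervals (exact, Poisson or binomial) cover counting error only. The barcode lists were recorded with the other library's matrix, to judge by their lengths, and were used only to count 67 barcode strings that both lists hold. Directions below hold for the matrices as recorded.

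Free RNA in the droplets was read from T and B cells (229 Control and 2095 AngII+HS cells), which are not known as main sources of the 4 products given next. There, *Hmox1* stood at 5.39 CPM in the Control and 89.8 CPM in the AngII+HS library, *Hp* at 0 UMIs and 13.6 CPM, *Lcn2* at 1.08 and 7.70 CPM, and *Slc11a1* at 2.15 and 5.47 CPM. *Hp* had nearly 1 level in 6 groups of the AngII+HS library: 14.2 CPM in T cells, 12.8 in B cells, 13.9 in dendritic cells (DCs), 13.1 in VECs, 14.1 in LECs and 13.8 in VSMCs. Values near these levels are read below as background.

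A gene was counted as past 2-fold if it had at least 20 UMIs over both libraries and a log2 ratio of at least 1 in size. In macrophages 5 of 10 genes were past 2-fold, 1 higher and 4 lower in AngII+HS, where 28.1% of all genes tested were (10.7% higher and 17.3% lower). In neutrophils 4 of 9 were, 1 higher and 3 lower (37.3% of all genes, 17.5% higher and 19.8% lower). In fibroblasts 4 of 9 were, 3 higher and 1 lower (16.5% of all genes, 7.67% higher and 8.84% lower). In VECs 3 of 8 were, 2 higher and 1 lower (14.2%, 8.23% higher and 5.98% lower), and in VSMCs 2 of 10, both higher (16.5%, 6.16% higher and 10.3% lower). LECs had 0 of 6 past 2-fold (12.4%, 8.05% higher and 4.33% lower), and DCs 2 of 6 (28.7%). The median log2 ratio of the genes was −0.10 in macrophages, −0.08 in neutrophils, 0.04 in VECs, 0.11 in fibroblasts and 0.12 in VSMCs, beside −0.11, −0.04, 0.05, −0.15 and −0.05 over all genes tested. The shares past 2-fold in neutrophils, VSMCs and DCs were near those of all genes, and every share rests on 10 genes or fewer. The 2 genes higher in VECs and the 2 in VSMCs lay at or near the level of T and B cells.

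**Figure D1:**
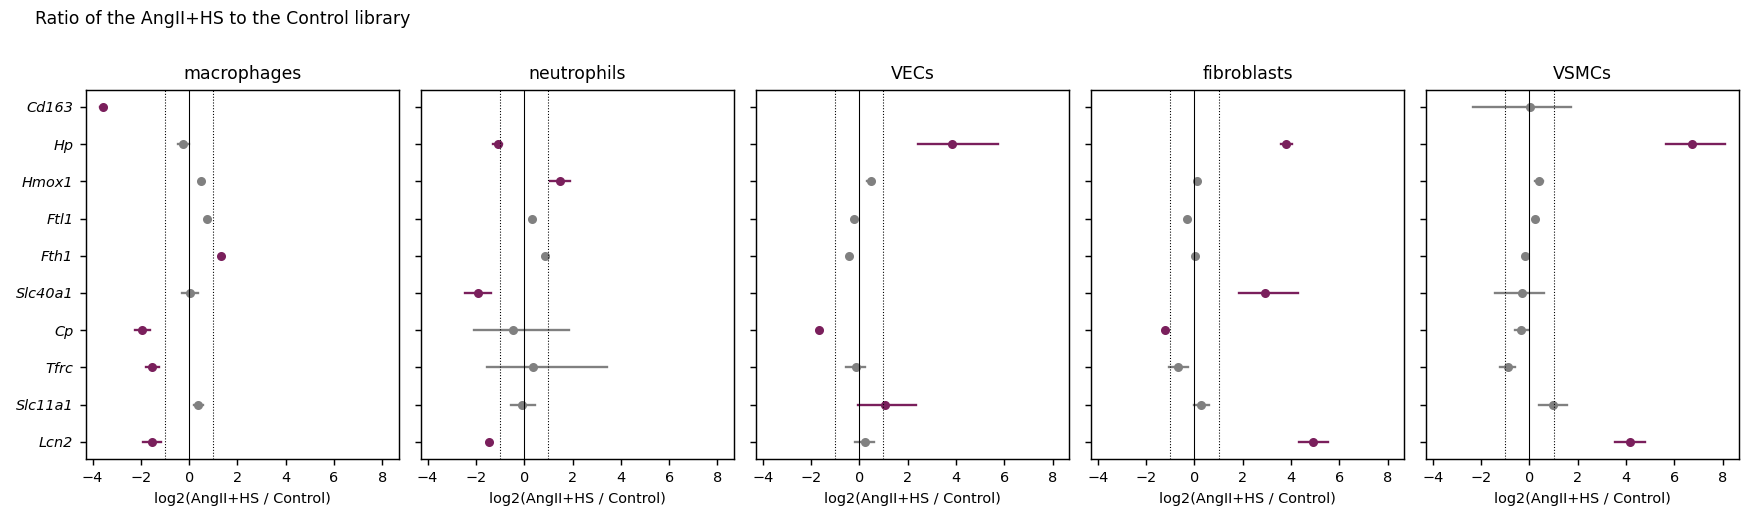
Log2 ratio of AngII+HS over Control (horizontal axis) of each gene in 5 cell groups, with 95% counting intervals; purple points are past 2-fold, dotted lines mark 2-fold, and genes under 20 UMIs or at 0 in a library are not drawn. *Cd163* lies farthest left, at −3.56 in macrophages, and *Hp* and *Lcn2* lie right in fibroblasts (3.80 and 4.91) and left in neutrophils (−1.10 and −1.46).

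*Cd163* (ENSMUSG00000008845, chromosome 6, 124281606 to 124307560, plus strand, GRCm39) was a macrophage transcript, with 95.1% of its Control and 92.5% of its AngII+HS UMIs in that group. Its level was 547.5 CPM (516.5 to 580.0) in Control and 46.5 CPM (43.5 to 49.8) in AngII+HS macrophages, 11.8-fold lower (log2 ratio −3.56, −3.69 to −3.43). With each cell thinned to 1000 UMIs, 36.8% of Control and 3.54% of AngII+HS macrophages held a *Cd163* UMI, beside 0 and 0.0495% of T and B cells. The makeup of the group differed between the libraries, so the subclusters were read one by one.

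Macrophages were clustered again, without the 10 genes, and named from markers that include none of them. Resident-like macrophages (*Lyve1*, *Folr2*, *Cbr2*) made up 327 Control and 987 AngII+HS cells. A subcluster with MHC class II markers, led by *Irf7*, held 44 and 877 cells, lipid-associated macrophages (*Trem2*, *Gpnmb*, *Lpl*) 12 and 415, and monocytes (*Plac8*, *Vcan*) 41 and 258. The MHC class II name is a label only: 3 of 4 such markers were detected, but none was among the leading genes (*Irf7*, *AW112010*, *Ly6a* and others). A pair of small subclusters also carried resident-like markers and is kept apart here, one with mitochondrial and contractile genes among its leaders (53 and 12 cells) and one led by *Marco* (0 and 25 cells). A further 191 AngII+HS cells carried fibroblast genes and stayed unnamed. Arg1-like macrophages (*Arg1*, *Spp1*) held 0 Control and 1553 AngII+HS cells, so that their state and their library cannot be told apart. *Cd163* was at 728.5 CPM in Control and 208.1 CPM in AngII+HS resident-like cells, 3.50-fold lower (−1.81, −1.95 to −1.67). In the MHC class II subcluster it was at 337.6 CPM (72 UMIs) and 2.51 CPM (10 UMIs). Of the AngII+HS macrophage UMIs of *Cd163*, 85.8% lay in the resident-like subcluster, which held 22.9% of those cells. The gene was thus lower within resident-like cells, by less than over all macrophages.

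**Figure D2:**
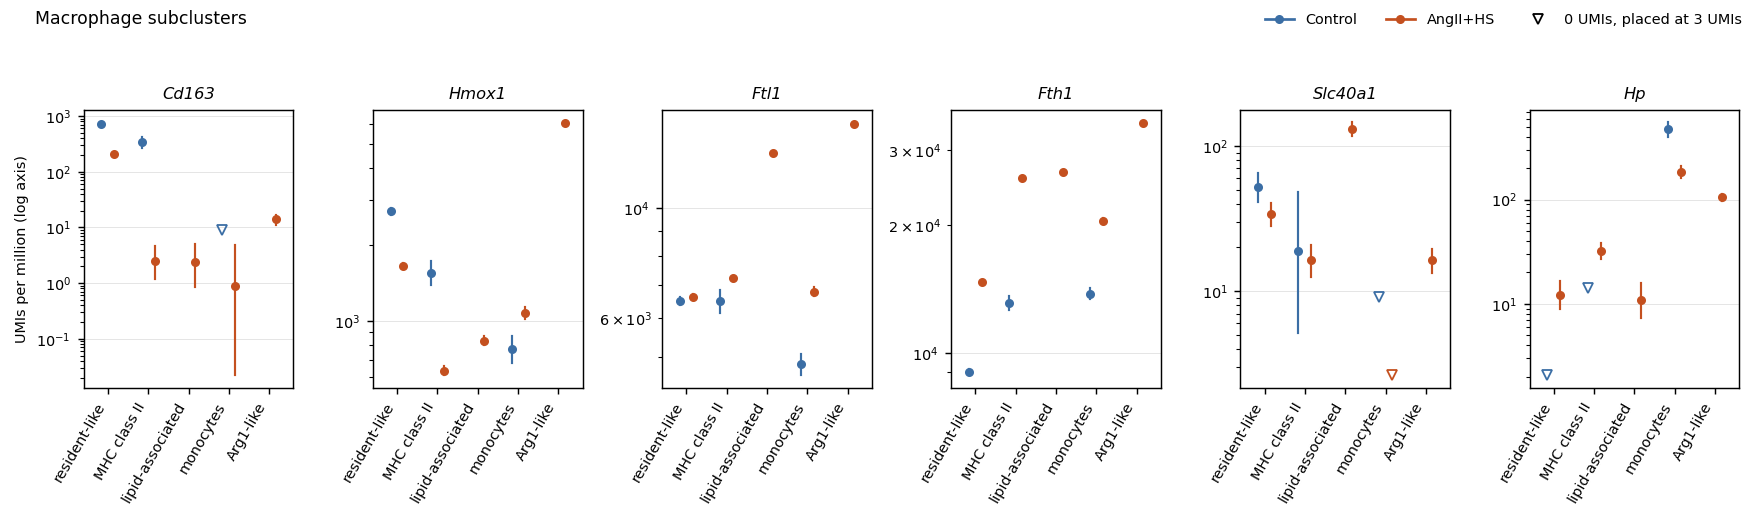
CPM (log axis) of 6 genes in macrophage subclusters with at least 30 cells in a library, Control in blue and AngII+HS in orange, with 95% counting intervals; open triangles mark 0 UMIs, drawn at 3 UMIs. *Hmox1* is lower in AngII+HS than in Control resident-like cells (1651 and 2707 CPM) and, of the subclusters drawn, highest in Arg1-like cells (6033 CPM), which only the AngII+HS library holds.

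*Hp* (ENSMUSG00000031722, chromosome 8, 110301759 to 110305804, minus strand), known mainly as a liver product, was highest in neutrophils of both libraries, at 1048 CPM in Control and 487.2 CPM in AngII+HS. This was 2.15-fold lower (−1.10, −1.28 to −0.92). The 7 neutrophil markers summed to 132663 and 55561 CPM, with *G0s2* (1593 and 4705 CPM) and *Acod1* (4519 and 5259 CPM) higher in AngII+HS and the other markers lower, and their cells had a median of 2740.5 UMIs in Control (98 cells) and 1266 in AngII+HS (4658 cells). Their part in the neutrophil values given here was not tested. In fibroblasts the order was opposite, with 18.7 CPM (15.98 to 21.71) in Control and 261.0 CPM (255.0 to 267.1) in AngII+HS, 14.0-fold higher (3.80, 3.58 to 4.03). The share of thinned fibroblasts with an *Hp* UMI was 0.903% and 9.46%, against 0 and 1.64% of T and B cells. Fibroblasts thereby held 60.8% of all *Hp* UMIs of the AngII+HS library, and neutrophils 25.8%. In macrophages the level was 73.6 and 62.4 CPM, with an interval of the log2 ratio that includes 0 (−0.48 to 0.01). Of the 156 Control macrophage UMIs of *Hp*, 155 lay in the 41 monocytes (471.6 CPM), whereas 717 of the 1146 AngII+HS UMIs lay in Arg1-like cells (105.1 CPM) and 210 in monocytes (184.6 CPM). Similar levels over the whole group thus came from different subclusters.

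The fibroblast signal of *Hp* was seen in several subclusters of these cells, which were named by their leading gene, but was uneven among them. It stood at 62.4 CPM in Control and 505.1 CPM in AngII+HS in the *Smpd3*-led subcluster (119 and 574 UMIs), and at 22.0 and 164.1 CPM in the *C7*-led one (42 and 503 UMIs). A *Spp1*- and *Mmp13*-led subcluster of 212 AngII+HS cells and no Control cell had the highest level, 885.0 CPM, and held 39.7% of the fibroblast *Hp* UMIs with 4.93% of the cells. A *Saa3*-led subcluster had 17.3 CPM (6 UMIs) in Control and 392.1 CPM in AngII+HS, where it held 27.4% of the UMIs with 12.7% of the cells. The *Dio2*-led subcluster held 2.55% of the AngII+HS UMIs with 16.8% of the cells. The *Inpp4b*-led subcluster, with contractile genes, had 12.1 CPM, the background level. An *Acod1*-led subcluster of 5 and 133 cells carried neutrophil genes and held 2.69% of the *Hp* UMIs.

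*Hmox1* (ENSMUSG00000005413, chromosome 8, 75820241 to 75827217, plus strand) was highest in macrophages of both libraries, at 2167 CPM (2104 to 2230) in Control and 3002 CPM (2977 to 3027) in AngII+HS (log2 ratio 0.47, 0.43 to 0.51). Over all retained cells it stood at 136.5 and 852.1 CPM, a 6.24-fold difference beside 4.65% of Control and 21.9% of AngII+HS cells being macrophages. Within resident-like macrophages it was 1.64-fold lower in AngII+HS (2707 and 1651 CPM; −0.71, −0.77 to −0.65), and in the MHC class II subcluster 2.44-fold lower (1548 and 634.3 CPM). Monocytes were at 772.8 and 1073 CPM. Arg1-like macrophages had 6033 CPM, 3.65-fold above the resident-like cells of the same library, and held 74.7% of the macrophage *Hmox1* UMIs with 36.0% of the cells. The unnamed subcluster with fibroblast genes, not drawn, had 6743 CPM (1465 UMIs). The higher level over all macrophages therefore ran opposite to that inside the resident-like and MHC class II subclusters. In the latter, *Cd163* was at 337.6 CPM in 44 Control cells and 2.51 CPM in AngII+HS. Its cells may thus be unlike in the libraries, which was not tested. This limits every comparison of that subcluster between the libraries, and the equal weights that include it. With the subclusters of at least 30 cells in both libraries (resident-like, MHC class II and monocytes) weighted equally, the log2 ratio was −0.58. This left out Arg1-like and lipid-associated cells and the small subclusters. Without the subclusters that hold AngII+HS cells only, the log2 ratio over macrophages was −1.04, a choice made after seeing the data.

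In neutrophils *Hmox1* was at 184.4 CPM (50 UMIs) in Control and 510.7 CPM in AngII+HS, 2.77-fold higher (1.47, 1.07 to 1.90). This difference of 326 CPM was larger than that of 84.4 CPM in T and B cells. Summed fibroblast markers were at 1231 CPM in AngII+HS neutrophils, beside 705.1 CPM in T and 758.0 CPM in B cells. VSMC markers were at 1389 CPM, beside 813.9 and 858.8 CPM. The T and B cell level may thus be too low a background for neutrophils, which was not tested. The Control neutrophils formed a subcluster of their own in the second clustering, led by *Ngp* and *Ly6g*. The 4 other subclusters, all of AngII+HS cells, ranged from 368.0 to 651.4 CPM. For each of the genes, the state and the library of neutrophils thus cannot be told apart. VECs had 151.7 and 209.6 CPM, a difference of 57.9 CPM, smaller than in T and B cells. Within VECs, *Hmox1* was high in the *Rbp7*- and *Gpihbp1*-led subcluster of capillary genes, at 607.5 and 452.0 CPM, and low in the *Ptprj*-led one, which bears the arterial gene *Bmx*, at 15.3 and 57.3 CPM, the latter under the T and B cell level. LECs had 174.0 and 315.1 CPM, and fibroblasts 236.6 and 254.6 CPM. In DCs the direction was opposite, with 310.6 CPM (59 UMIs in 54 cells) and 78.0 CPM, the latter near the T and B cell level. Among DC markers, *Xcr1* was at 210.6 and 31.1 CPM and *Ccr7* at 231.6 and 654.4 CPM, whereas *Cd209a* was at 205.3 and 184.2 CPM. The part of DC makeup in the DC values of *Hmox1* and the other genes was not tested.

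**Figure D3:**
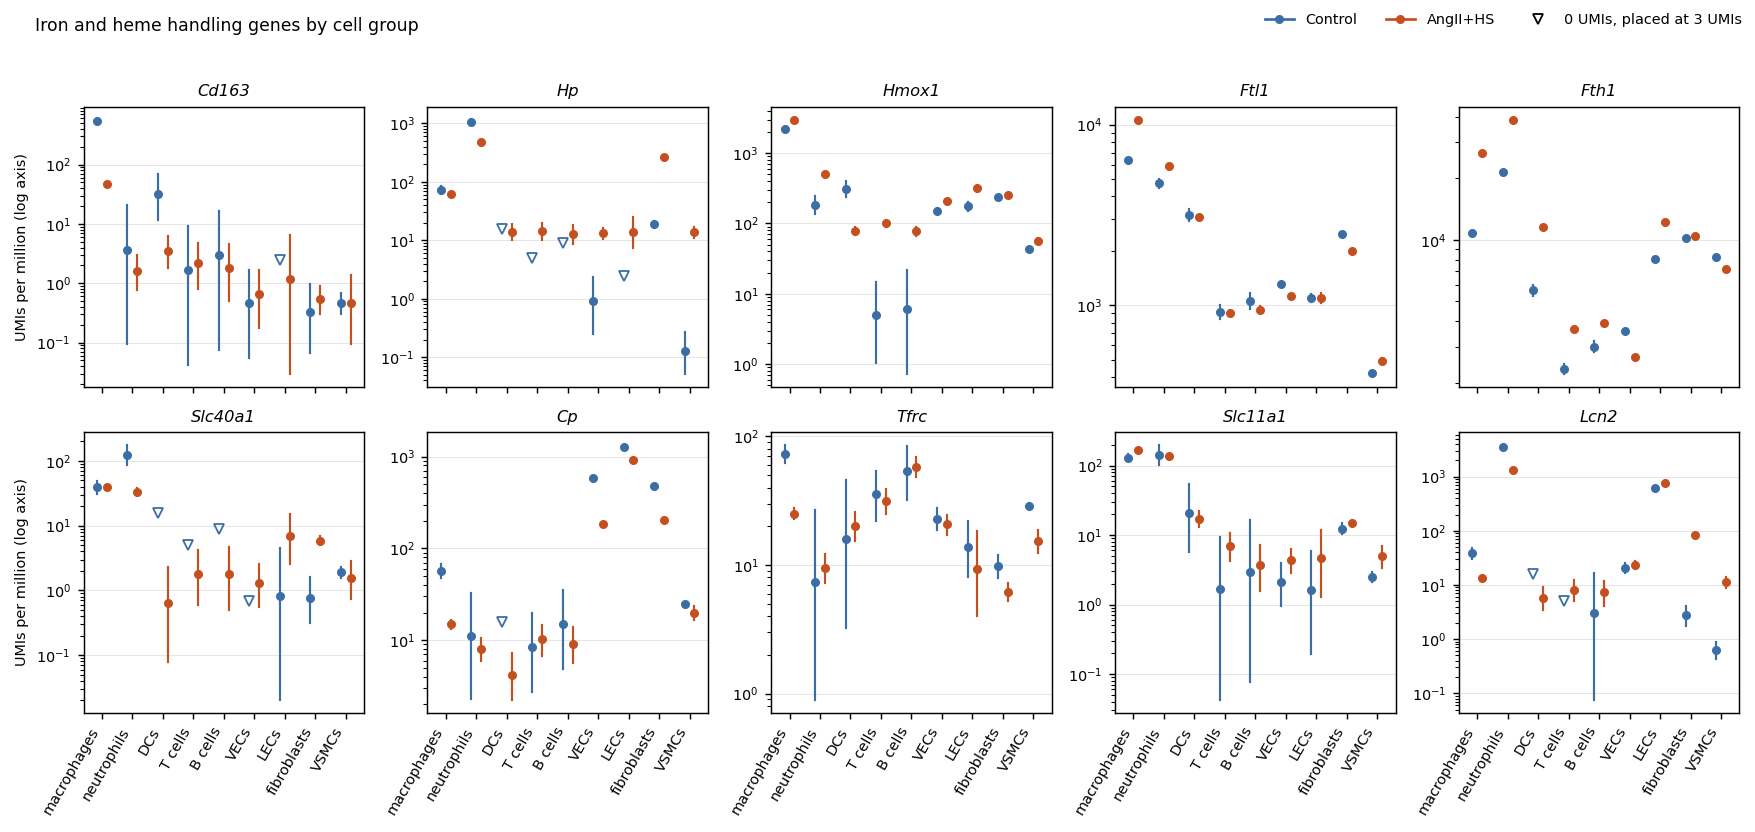
CPM (log axis) of the 10 genes in 9 cell groups, Control in blue and AngII+HS in orange, with 95% counting intervals; open triangles mark 0 UMIs, drawn at 3 UMIs. *Cd163* is highest in macrophages, *Cp* in LECs, VECs and fibroblasts, *Lcn2* in neutrophils and LECs, and *Hp* of AngII+HS lies between 12.8 and 14.2 CPM in DCs, T cells, B cells, VECs, LECs and VSMCs.

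Both ferritin chains were abundant. *Fth1* (ENSMUSG00000024661, chromosome 19, 9957911 to 9962462, plus strand) was highest of the 9 groups plotted in neutrophils, at 21386 CPM in Control and 38765 CPM in AngII+HS (0.86, 0.82 to 0.90). The unnamed cluster led by *Cst3* and *Igfbp6* had 22348 and 18172 CPM. In macrophages it stood at 10759 and 26553 CPM, 2.47-fold higher (1.303, 1.284 to 1.323). The direction was the same in resident-like cells (9019 and 14697 CPM, 0.70), in the MHC class II subcluster (13098 and 25742 CPM) and in monocytes (13780 and 20458 CPM). Lipid-associated cells, with 12 Control cells, were nearly level at 26028 and 26563 CPM (0.03, −0.04 to 0.09). Arg1-like cells had 34712 CPM. DCs had 5664 and 11543 CPM, LECs 8070 and 12251 CPM. T cells had 2326 and 3638 CPM. VECs had 3580 and 2663 CPM, VSMCs 8275 and 7233 CPM, and fibroblasts 10246 and 10380 CPM. *Fth1* was thus higher in AngII+HS in each immune group shown and in LECs. It was lower over all VECs and all VSMCs, and nearly level in fibroblasts. T and B cells, from which free RNA was read above, together had 2567 and 3766 CPM. The AngII+HS level of VECs lay under the latter. The part of free RNA in the T cell and VEC values was not tested. The makeup of VECs differed between the libraries. The *Rbp7*-led subcluster had 17.2% of Control and 36.5% of AngII+HS VECs, with 8.04% and 21.7% of their *Fth1* UMIs. Within it the *Fth1* level was higher in AngII+HS (2312 CPM, 3580 UMIs) than in Control (1246 UMIs), opposite to all VECs. The part of this subcluster in the VEC value was not tested. With no doublets removed the VEC value turned to a log2 ratio of 0.44. In macrophages, equal weights for the resident-like, MHC class II and monocyte subclusters, without the others, gave 0.76.

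*Ftl1* (ENSMUSG00000050708, chromosome 7, 45107367 to 45109308, minus strand) had 6358 CPM in Control and 10668 CPM in AngII+HS macrophages (0.75, 0.72 to 0.77). In resident-like cells the levels were 6486 and 6610 CPM (0.03, −0.01 to 0.06), so the difference over all macrophages was not seen there. Arg1-like and lipid-associated macrophages of AngII+HS had 14798 and 12892 CPM. The reads of *Ftl1* can be split with its near-identical copy *Ftl1-ps1*, which had 103.8 and 204.6 CPM in macrophages, so that these levels are uncertain. Neutrophils had 4721 and 5901 CPM, fibroblasts 2474 and 2000 CPM, and VSMCs the lowest levels, 421.5 and 490.6 CPM.

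*Slc40a1* (ENSMUSG00000025993, chromosome 1, 45947211 to 45965683, minus strand) was a low transcript. Macrophages had 39.2 CPM (83 UMIs) and 40.0 CPM (734 UMIs), with a log2 ratio of 0.03 (−0.30 to 0.38). Resident-like cells had 52.3 and 34.1 CPM (−0.62, −1.05 to −0.18). Its level differed among the AngII+HS subclusters, with 130.9 CPM in lipid-associated, 34.1 in resident-like, 16.3 in Arg1-like and 16.3 in MHC class II macrophages, and 0 UMIs in 258 monocytes. Lipid-associated cells held 45.5% of the macrophage UMIs with 9.61% of the cells. A *Marco*-led subcluster of 25 AngII+HS cells reached 775.7 CPM (83 UMIs). Among the large subclusters, *Slc40a1* and *Hmox1* thus peaked in different ones. The small *Marco*-led subcluster held more than its share of both genes. With 0.579% of the AngII+HS macrophages it held 11.3% of their *Slc40a1* and 1.23% of their *Hmox1* UMIs (676 UMIs). As CPM, its *Hmox1* level was near the 6033 CPM of Arg1-like cells. The shares in Arg1-like cells were 36.0% of the cells and 74.7% of the *Hmox1* UMIs, so *Hmox1* exceeded its cell share in both. In neutrophils *Slc40a1* was at 125.4 CPM (34 UMIs) and 33.0 CPM (205 UMIs), 3.80-fold lower (−1.93, −2.46 to −1.36). In fibroblasts it was at 0.769 CPM (7 UMIs) and 5.89 CPM (161 UMIs), against 1.82 CPM in AngII+HS T and B cells, and 109 of the 161 UMIs lay in the *Thbs2*-led subcluster. The 8 macrophage markers summed to 693.5 and 1593 CPM in these fibroblasts, and their part in this value was not tested.

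*Cp* (ENSMUSG00000003617, chromosome 3, 20011090 to 20063930, plus strand) was high in endothelial cells, fibroblasts and neural cells, the last with 310.1 CPM (146 UMIs) and 354.3 CPM (439 UMIs). LECs had the highest level, 1267 CPM in Control and 917.2 CPM in AngII+HS (−0.47, −0.59 to −0.34). VECs had 578.5 and 183.6 CPM, 3.15-fold lower (−1.66, −1.76 to −1.55), and fibroblasts 474.4 and 205.2 CPM, 2.31-fold lower (−1.21, −1.27 to −1.15). The makeup of VECs differed: the *Rbp7*-led subcluster, where *Cp* was at 10.5 and 7.10 CPM, held 144 Control and 439 AngII+HS cells. Within the *Ptprj*-led subcluster the levels were 919.6 and 502.6 CPM (−0.87, −1.03 to −0.72), in the *Csf3*-led one, which bears the venular gene *Ackr1*, 555.2 and 42.9 CPM (−3.69, −4.05 to −3.35), and in the *Cish*-led one 528.0 and 466.6 CPM (−0.18, −0.37 to 0.01). The difference thus varied widely among VEC subclusters. Macrophages had 57.1 and 14.8 CPM (−1.95, −2.26 to −1.62), where T and B cells had 10.8 and 9.73 CPM, and resident-like cells 79.9 and 46.0 CPM. With equal weights for the resident-like, MHC class II and monocyte subclusters, without the others, the macrophage log2 ratio of *Cp* was −0.61. Under TMM scaling the fibroblast value was −0.98, under 2-fold.

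**Figure D4:**
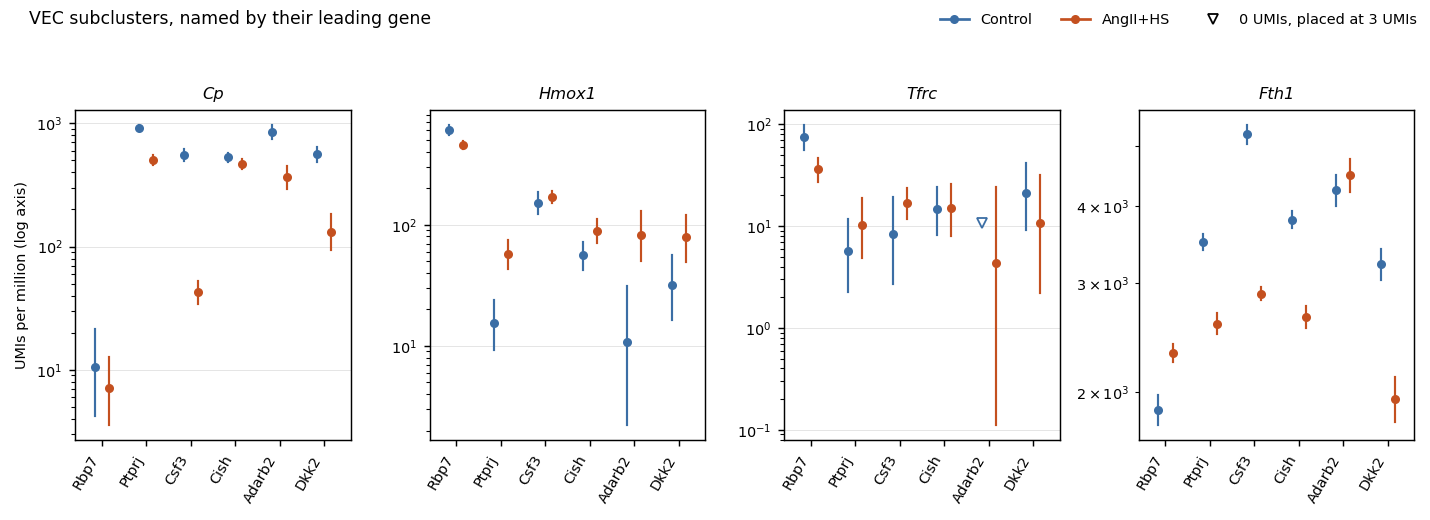
CPM (log axis) of *Cp*, *Hmox1*, *Tfrc* and *Fth1* in 6 VEC subclusters, each named by its leading gene, Control in blue and AngII+HS in orange, with 95% counting intervals. *Cp* is near 10 CPM in the *Rbp7*-led subcluster, where *Hmox1* is highest (607.5 and 452.0 CPM), and its largest drop lies in the *Csf3*-led subcluster (555.2 to 42.9 CPM), which also bears *Ackr1*.

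*Tfrc* (ENSMUSG00000022797, chromosome 16, 32427556 to 32451612, plus strand) was at 73.2 CPM (155 UMIs) in Control and 25.1 CPM (461 UMIs) in AngII+HS macrophages, 2.91-fold lower (−1.54, −1.81 to −1.27). In resident-like cells it was at 91.6 and 52.8 CPM (−0.79, −1.12 to −0.46). VSMCs had 28.9 and 15.4 CPM (−0.91, −1.22 to −0.62), and fibroblasts 9.78 and 6.18 CPM. VECs had 22.9 and 20.7 CPM and B cells 53.8 and 57.9 CPM, with intervals of the log2 ratio that include 0. With equal weights for the resident-like, MHC class II and monocyte subclusters, without the others, the macrophage value was −0.71. Of the 9 groups plotted, macrophages held the highest level in the Control library and B cells in the AngII+HS library, where 124 erythroid cells stood higher still, at 161.3 CPM (78 UMIs).

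*Slc11a1* (ENSMUSG00000026177, chromosome 1, 74414303 to 74425448, plus strand) had like levels in the phagocytes, 130.3 and 169.6 CPM in macrophages (0.38, 0.20 to 0.56) and 143.9 and 136.5 CPM in neutrophils (−0.08, −0.54 to 0.43). Over all cells it stood at 8.69 and 58.2 CPM, 6.69-fold higher, with more macrophages and neutrophils in the AngII+HS library. Resident-like macrophages had 122.6 and 119.8 CPM, and Arg1-like cells 205.3 CPM. VECs had 9 and 27 UMIs (2.08 and 4.36 CPM), the range of T and B cells. An unnamed cluster led by *Pln* and *Nrip2*, with *Notch3* and *Higd1b*, had 43.0 and 63.1 CPM, above fibroblasts (12.4 and 15.0 CPM) and VSMCs (2.52 and 4.97 CPM).

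*Lcn2* (ENSMUSG00000026822, chromosome 2, 32274645 to 32278264, minus strand) was highest in neutrophils, at 3589 CPM (3367 to 3822) in Control and 1304 CPM (1276 to 1333) in AngII+HS, 2.75-fold lower (−1.46, −1.56 to −1.36). The 4 AngII+HS neutrophil subclusters ranged from 575.0 to 1634 CPM, all under the Control level. Thinned, 83.5% of Control and 49.9% of AngII+HS neutrophils held a UMI. LECs followed, with 610.9 and 767.2 CPM (0.33, 0.18 to 0.48), against 20.3 and 23.8 CPM in VECs. In fibroblasts *Lcn2* was at 2.75 CPM (25 UMIs) in Control and 82.5 CPM (2254 UMIs) in AngII+HS, 30.02-fold higher (4.91, 4.34 to 5.54). Of the AngII+HS fibroblast UMIs, 55.8% lay in the *Spp1*- and *Mmp13*-led subcluster (393.5 CPM) and 27.4% in the *Saa3*-led one (124.0 CPM). The former has no Control cell, so its state and its library cannot be told apart. The *Thbs2*-led subcluster, with 26.2% of AngII+HS fibroblasts, had 6.71 CPM (38 UMIs), under the 7.70 CPM of T and B cells. In macrophages *Lcn2* was lower, at 38.7 and 13.2 CPM, and 81 of the 82 Control UMIs lay in monocytes (246.5 CPM), which had 35.2 CPM in AngII+HS. This macrophage value was reversed with no doublets removed (log2 ratio 0.08) and in thinned cells (0.22). *Lcn2* and *Hp* thus had opposite directions in neutrophils and fibroblasts.

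**Figure D5:**
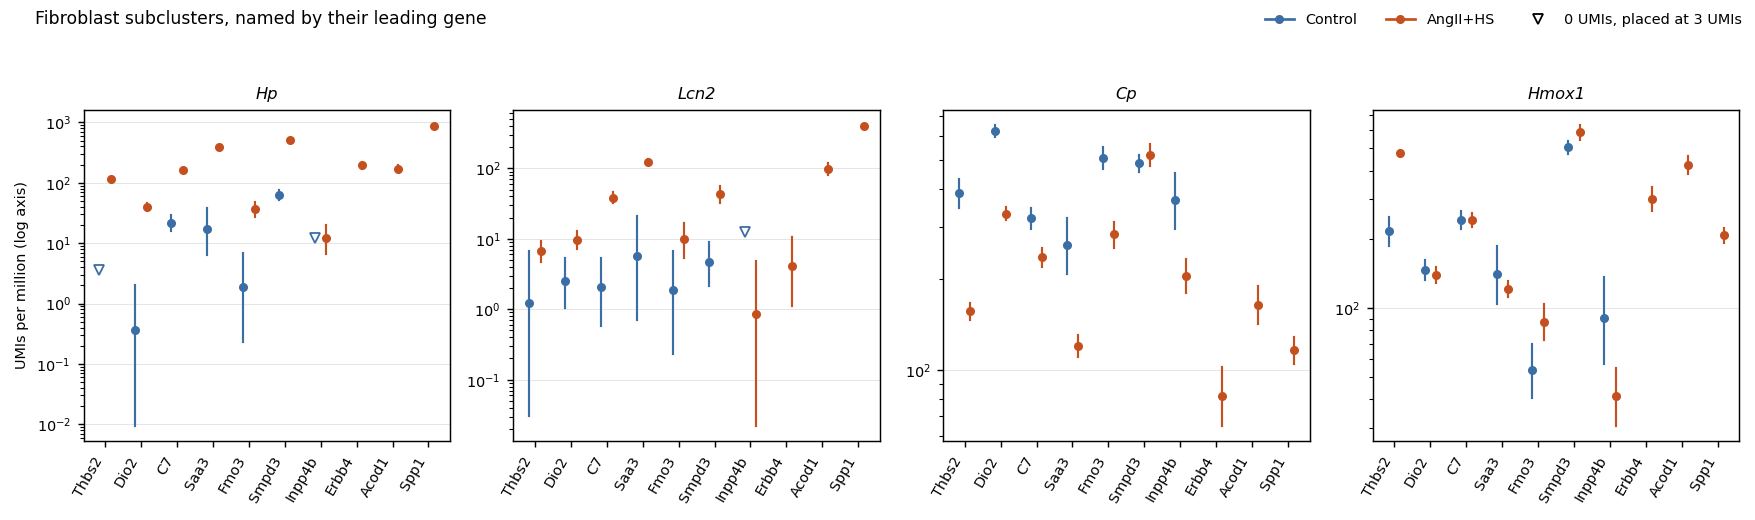
CPM (log axis) of *Hp*, *Lcn2*, *Cp* and *Hmox1* in fibroblast subclusters with at least 30 cells in a library, each named by its leading gene, Control in blue and AngII+HS in orange, with 95% counting intervals; open triangles mark 0 UMIs, drawn at 3 UMIs. *Hp* and *Lcn2* are highest in the *Spp1*-led subcluster (885.0 and 393.5 CPM), which holds AngII+HS cells only.

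A list of 71 other genes of iron and heme biology was read beside these. In macrophages 58 had at least 20 UMIs, and 10 were past 2-fold higher and 8 lower (28.1% of all genes either way), with a median log2 ratio of 0.03. *Slc48a1*, a heme transporter of the lysosome, was at 26.9 and 92.3 CPM (1.78), and *Lrp1*, the receptor of the heme and hemopexin complex, at 204.4 and 490.8 CPM (1.26). *Il1rn* and *Chil3*, listed with acute phase genes, were at 84.5 and 502.0 CPM (2.57) and at 178.4 and 430.8 CPM (1.27). Of 8 other targets of the transcription factor NRF2, 1 was higher and 1 lower. In fibroblasts 8 of 63 were higher and 7 lower (7.67% and 8.84% of all genes), with the 4 hemoglobin genes among the 7 in fibroblasts and among the 8 lower in macrophages. The acute phase gene *Saa3* was at 3.30 CPM (30 UMIs) in Control and 979.1 CPM in AngII+HS, and *Slc39a14*, an importer of iron not bound to transferrin, at 72.9 and 205.8 CPM (1.498). *Il1rn* was at 0.22 CPM (2 UMIs) and 12.2 CPM (5.80), and *Steap1* at 2.2 and 7.1 CPM (1.70). *Bmp6*, which induces hepcidin in liver, was at 14.5 and 4.46 CPM. In neutrophils, 13 of 47 were higher and 9 lower (17.5% and 19.8% of all genes), with the 4 hemoglobin genes among the 13. *Chil3* was also among the higher genes, at 48.0 CPM (13 UMIs) and 790.1 CPM (4.04). *Ltf*, the iron-binding lactoferrin of granules, was at 177.1 and 39.9 CPM (−2.15), and *Gclm* of glutathione synthesis at 110.7 and 42.3 CPM. In VECs 12 of 53 were higher and 0 lower (8.23% and 5.98% of all genes), and 4 of the 12 were hemoglobin genes. In VSMCs 6 of 61 were higher and 8 lower (6.16% and 10.3% of all genes), and the 8 included all 4 hemoglobin genes.

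Hemoglobin RNA, listed as a sign of red cell RNA in the droplets, differed between the libraries in opposite directions among the groups. *Hbb-bs* was at 535.3 CPM in Control and 182.1 CPM in AngII+HS macrophages, 156.6 and 38.3 CPM in fibroblasts and 139.0 and 27.0 CPM in VSMCs. In VECs it was at 12.0 and 262.9 CPM, and in neutrophils at 40.6 and 728.5 CPM. Its part in the levels of the 10 genes was not tested. Neutrophil markers summed to 98.5 and 301.2 CPM in fibroblasts, where *Hp* and *Lcn2* were higher in AngII+HS, with 0 of 7 markers at 0, and to 315.3 CPM in AngII+HS T cells, where *Hp* was at 14.2 CPM.

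The highest of 9 cell groups was the same in both libraries for 7 of the 10 genes, the exceptions being *Slc40a1*, *Tfrc* and *Slc11a1*. The share over all genes was not computed. Across 28 points, each a cell group of at least 50 cells in 1 library, the pattern of *Hp* was most like that of *Saa3* (Pearson's r of log2(CPM + 1) 0.87), and that of *Lcn2* like *Lrg1* (0.84). *Hmox1* was most like *Ctsb* (0.86), *Cd163* like *Cd209g* (0.84), *Cp* like *Slc10a6* (0.93), *Fth1* like *Gabarap* (0.86), *Slc40a1* like *Gsr* (0.87), *Slc11a1* like *Gm21188* (0.83), *Tfrc* like *Phf20* (0.78) and *Ftl1* like its copy *Ftl1-ps1* (0.95). The points share libraries and free RNA, and 8519 genes were searched, so these values are descriptions.

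RefSeq promoter windows (GRCm38.p6, 250 bases before to 50 after a start) covered 7 of the 10 genes with 10 windows. On either strand, the NF-kB core motif was in 8 of the 10 windows and in 50.8% of all 32851, the antioxidant response letters TGACNNNGC in 0 and 12.4%, and the STAT letters TTCNNNGAA in 0 and 8.30%. *Hmox1*, *Hp* and *Slc40a1* had no window in the table.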

How the data were processed

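Cells of 1 Control and 1 AngII+HS library were sequenced by the 10x 3′ v3.1 method. The UMI counts per gene and barcode were deposited by the authors as Cell Ranger gave them, unnormalised. Their processing notes name mm10, the paper's methods GRCm39, so no coordinate was read from the files. The 10 genes and the other lists were chosen with earlier results of these data known.

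A barcode was kept if it had 500 UMIs or more, 200 genes or more and a mitochondrial share under 20%. Scrublet doublets were then removed at 0.8% per 1000 cells. This took the Control library from 11288 to 10269 cells and the AngII+HS library from 24560 to 19734, a larger share in AngII+HS. Before filtering, the Control library held 11448 barcodes with 86618995 UMIs and the AngII+HS library 24804 with 117146856. Libraries were integrated with Seurat 5.3.0 (2000 variable genes, 30 components, resolution 0.8; second clustering 20 components, resolution 0.4). The members and pathway genes were left out of clustering. Clusters were named from marker lists, and the rule for clusters of low depth was settled after the clusters were seen. UMIs were summed per cell group and library, and ratios of these sums have exact conditional intervals. Their code was run on simulated Poisson counts, the model that the intervals assume. That run checked the code and not the spread between cells or mice. With 1 library per condition no test was made. The text names all 10 genes and the gene most like each. Of the pathway genes past 2-fold it gives those with the largest log2 ratios in each direction among genes with many UMIs, not all. Other tools were Python 3.11.15, scipy 1.17.1, scanpy 1.11.5, R 4.3.3 and, for TMM factors, edgeR 4.0.16. Alternatives covered doublets, filters, integration, resolution, genes for clustering, scaling, depth, thresholds, free RNA, makeup and shared barcodes, the last with the barcode lists exchanged.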

Additional observations from a re-analysis of the deposited data

Results flagged for a closer look

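A gene past 2-fold higher in AngII+HS in one cell group and past 2-fold lower in another was taken for a closer look. With 1 library per condition, none of these differences between cell groups was tested. *Hp* had a log2 ratio of −1.10 in neutrophils, 3.80 in fibroblasts, 3.82 in VECs and 6.75 in VSMCs. The values in VECs and VSMCs stand on AngII+HS levels of 13.1 and 13.8 CPM, beside 13.6 CPM in T and B cells. *Lcn2* had −1.46 in neutrophils, −1.55 in macrophages, 4.91 in fibroblasts and 4.16 in VSMCs, where the AngII+HS level was 11.2 CPM, beside 7.70 CPM in T and B cells. *Slc40a1* had −1.93 in neutrophils, from 34 Control UMIs, and 2.94 in fibroblasts, from 7 Control UMIs.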

How the results depend on the processing

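Each value was computed again under up to 18 settings that could change it. Of the 243 values of genes past 2-fold that could be computed again, 230 stayed past it in the same direction. Values that fell under 20 UMIs in a setting, or had no ratio after the T and B cell level was subtracted, are not in this count. Among those left out after subtraction were *Hp* and *Slc11a1* in VECs (−0.49 and −1.11 CPM left in AngII+HS) and *Lcn2* in VSMCs (−0.45 CPM left in Control). *Cd163* in macrophages ranged from −3.69 to −2.33 on the log2 scale, *Hp* in fibroblasts from 2.92 to 4.19, *Lcn2* in fibroblasts from 2.88 to 6.29, *Cp* in VECs from −1.76 to −1.65 and *Hmox1* in neutrophils from 1.43 to 1.94, or 1.23 with the T and B cell level subtracted. *Lcn2* in macrophages reversed to 0.083 with no doublets removed and to 0.22 in thinned cells. The cause was not tested. Of the genes past 2-fold, macrophages had 3 in place of 5 with the resident-like, MHC class II and monocyte subclusters weighted equally and the others left out. There *Fth1*, *Tfrc* and *Cp* fell under 2-fold (0.76, −0.71 and −0.61), and *Hp*, not past it in the main setting, reached −1.04. VECs had 6 in place of 3 with no doublets removed and 1 with a minimum of 100 UMIs. VSMCs had 4 in place of 2 with no doublets removed, with the stricter cell filter, merged without integration, with equal weight per cell and at a log2 threshold of 0.5, 1 with a minimum of 100 UMIs and 0 in thinned cells. Counting only genes over 2 times the T and B cell level, chosen after seeing the data, left 1 in VECs and 0 in VSMCs. TMM factors moved log2 ratios by 0.32 in macrophages and 0.23 in fibroblasts. *Hp* in neutrophils dropped just under 2-fold merged without integration (−0.98), at resolution 0.4 (−0.99) and in thinned cells (−0.97). The 98 Control neutrophils limit every neutrophil value. No paired analysis was possible because each condition has 1 library.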
